A study of Homo sapiens with 12 samples.

Results

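The rows described here are the RefSeq noncoding transcripts of PC3 cells, an established human prostate cancer cell line. They were chosen by identifier and abundance: rows whose RefSeq accession begins with NR_ (curated noncoding transcripts) or XR_ (predicted ones), with expected read counts that sum to at least 100 over the 12 libraries. The rule kept 7557 of the 177700 linear transcript rows, out of 23196 NR and XR rows at any sum. Of these, 5358 rows (1757 NR and 3601 XR) belonged to 2952 genes that also have NM rows, RefSeq's curated protein-coding transcripts, and are called noncoding isoforms below. The other 2199 rows (1152 NR and 1047 XR) belonged to 1755 genes with no NM row, called noncoding genes below. Wild-type PC3 cells had received PBS (BLANK), silver nanoparticles (AgNPs), a treatment labelled DOC that the labels do not spell out, or AgNPs with DOC (COM). Each of the 4 groups held 3 libraries of total RNA, and the labels give no dose, time or batch. PC3 is a single line, so nothing here extends to other prostate cells.

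The summed count chose the rows and is described without a test. The median sum was 390.1 for noncoding isoforms and 333.4 for rows of noncoding genes, and 44 and 35 rows, respectively, reached 10000. Just outside the limit were rows of STK11 (99.92) and CAMKK1 (99.99), and just inside it were rows of B4GAT1-DT and LOC105376617, both at 100. Of the 7557 rows, 7498 also passed the filter on low counts and were tested (5315 isoforms and 2183 rows of noncoding genes). A row scarce in BLANK could pass only through a treated group, so counts over the tested rows describe those rows and are not counts over all noncoding transcripts. RefSeq typed 1449 rows of noncoding genes as lncRNA, 338 as transcribed pseudogene and 97 as protein coding, and 302 matched no entry of its gene table.

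Long noncoding RNAs act as RNA rather than through a protein: some build nuclear bodies, some act on the chromatin near the place where they are made, and some are mainly carriers of small RNAs. Host genes carry snoRNAs (which guide the modification of ribosomal RNA) or microRNA hairpins (which yield the short RNAs that repress mRNAs), and the spliced host transcript is often degraded quickly. A noncoding isoform of a coding gene is usually a transcript with a retained intron or a poison exon, a cassette exon that brings an early stop codon. Such transcripts are known substrates of nonsense-mediated decay, the pathway that destroys RNAs with early stops, and SR splicing factors use poison exons to limit their own levels.

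Several microRNA host genes among the members passed a test. The mature sequences of 3 of them that carry well-known clusters are shown, since they are what the host transcripts hold. Sequences are from RefSeq on GRCh38.p14, written 5′ to 3′, with the seed (bases 2 to 8, which pair with targets) in capitals. MIR23AHG on chromosome 19 carries 3 microRNAs with 3 different seeds.
hsa-miR-23a-3p (chr19:13836595-13836615, minus strand): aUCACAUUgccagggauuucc
hsa-miR-27a-3p (chr19:13836447-13836467, minus strand): uUCACAGUggcuaaguuccgc
hsa-miR-24-3p (chr19:13836289-13836310, minus strand): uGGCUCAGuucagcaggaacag
MIRLET7BHG on chromosome 22 carries let-7 microRNAs, and the let-7a and let-7b shown share the seed GAGGUAG.
hsa-let-7a-5p (chr22:46112752-46112773, plus strand): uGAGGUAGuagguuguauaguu
hsa-let-7b-5p (chr22:46113691-46113712, plus strand): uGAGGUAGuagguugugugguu
MIR17HG on chromosome 13 carries the miR-17/92 cluster, in which miR-17 and miR-20a share the seed AAAGUGC, and miR-92a has another.
hsa-miR-17-5p (chr13:91350618-91350640, plus strand): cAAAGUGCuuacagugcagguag
hsa-miR-20a-5p (chr13:91351072-91351094, plus strand): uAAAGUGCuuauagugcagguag
hsa-miR-92a-3p (chr13:91351361-91351382, plus strand): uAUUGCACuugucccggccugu
The table measures the host transcripts and holds no mature microRNA from these clusters, so nothing below is a microRNA level.

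Promoters of the noncoding genes named for any comparison were searched for motifs of stress-responsive factors, and a pair is shown because one gene rose and the other fell in AgNPs. RefSeq gave a promoter (250 bases before the start to 50 after it, GRCh38.p14) for 20 of the 43 named noncoding genes, and none for NMRAL2P or NEAT1. The motifs were TGACNNNGC (the antioxidant response element bound by NRF2), TGACTCA or TGAGTCA (AP-1), TGCACNC or TGCGCNC (the metal response element core), TGATGNAA (the C/EBP-ATF response element) and TTCNNGAA (heat shock), on both strands. TGACNNNGC and the AP-1 letters can overlap. LINC02604, higher in AgNPs, holds a metal response core and an antioxidant response match. VPS9D1-AS1, lower in AgNPs, holds 1 and 2 of these, shown in capitals.
LINC02604 (chr7:66903870-66904169, plus strand): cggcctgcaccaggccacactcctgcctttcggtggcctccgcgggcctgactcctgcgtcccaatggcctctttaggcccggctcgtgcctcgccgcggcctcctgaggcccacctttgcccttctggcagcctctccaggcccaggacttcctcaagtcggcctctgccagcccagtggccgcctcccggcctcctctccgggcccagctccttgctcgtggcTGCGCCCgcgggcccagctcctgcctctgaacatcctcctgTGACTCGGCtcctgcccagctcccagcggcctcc
VPS9D1-AS1 (chr16:89711606-89711905, plus strand): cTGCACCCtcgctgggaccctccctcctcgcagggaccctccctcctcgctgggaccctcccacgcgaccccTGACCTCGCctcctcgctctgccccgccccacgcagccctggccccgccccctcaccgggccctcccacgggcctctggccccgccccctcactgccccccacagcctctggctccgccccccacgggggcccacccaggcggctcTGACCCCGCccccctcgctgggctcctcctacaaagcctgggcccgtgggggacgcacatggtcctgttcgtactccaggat
Among 35116 RefSeq promoters of this length, 13.3% held the antioxidant response letters and 29.6% the metal response core. The shares were 12.8% and 21.3% among 47 promoters of noncoding genes that rose in AgNPs, and 13.6% and 34.8% among 66 of those that fell. AP-1 letters were in 4.95% of all promoters, 6.38% of the 47 and 3.03% of the 66. A match is only a match of letters.

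Library depth and composition differed by group, which touches every count below. Summed linear expected counts per library were 22573481 to 22769479 in BLANK, 13049868 to 13362290 in AgNPs, 18603100 to 19421873 in DOC and 10996446 to 11069928 in COM. Epithelial markers were present (KRT8, KRT18, CD44 and HOXB13 at group means of 155 to 369 CPM, counts scaled to a common library size with TMM), EPCAM was at 8.09 to 11.4 CPM, and the immune gene PTPRC and the endothelial gene VWF were at most 0.348 CPM. The endothelial gene PECAM1 was at 1.84 to 2.97 CPM. CD68 stood at 41.0 to 50.6 CPM and COL1A1 at 15 to 19 CPM. KLK3 and CD3E had no tested gene sum. In bulk RNA, fewer cells with a transcript and less of it per cell cannot be told apart.

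The share of each library on NR and XR rows of noncoding genes rose from BLANK to COM, and NEAT1 carried most of that difference. Rows of noncoding genes held 1.38%, 1.41% and 1.39% of the linear counts in the BLANK libraries, 1.61%, 1.60% and 1.60% in AgNPs, 1.46%, 1.52% and 1.52% in DOC and 1.85%, 1.84% and 1.82% in COM. No treated library overlapped BLANK. NEAT1 alone, the RNA that scaffolds nuclear bodies called paraspeckles, held a mean of 0.242% in BLANK, 0.433% in AgNPs, 0.306% in DOC and 0.637% in COM. Without NEAT1 the mean shares were 1.15%, 1.17%, 1.20% and 1.20%, in the same order of groups. These shares cover NR and XR rows only, which held 722787 of 761552 linear counts of NEAT1. Of another noncoding gene, MALAT1, they held only 2515 of 1151998. The part carried by NEAT1 is therefore its part within these rows, not within all counts of noncoding genes. Noncoding isoforms held 2.74%, 2.76%, 2.79% and 2.81%, and their DOC libraries overlapped BLANK (exact permutation test, two-sided, p = 0.2). For the noncoding genes each treatment gave p = 0.1 in the same exact test, the smallest value that 3 against 3 libraries allow. RefSeq rows of every class together held 86.6% of linear counts in BLANK, 85.7% in AgNPs, 84.8% in DOC and 83.8% in COM, with the rest on other annotations, and the part of this shift in the shares was not tested.

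**Figure D1:**
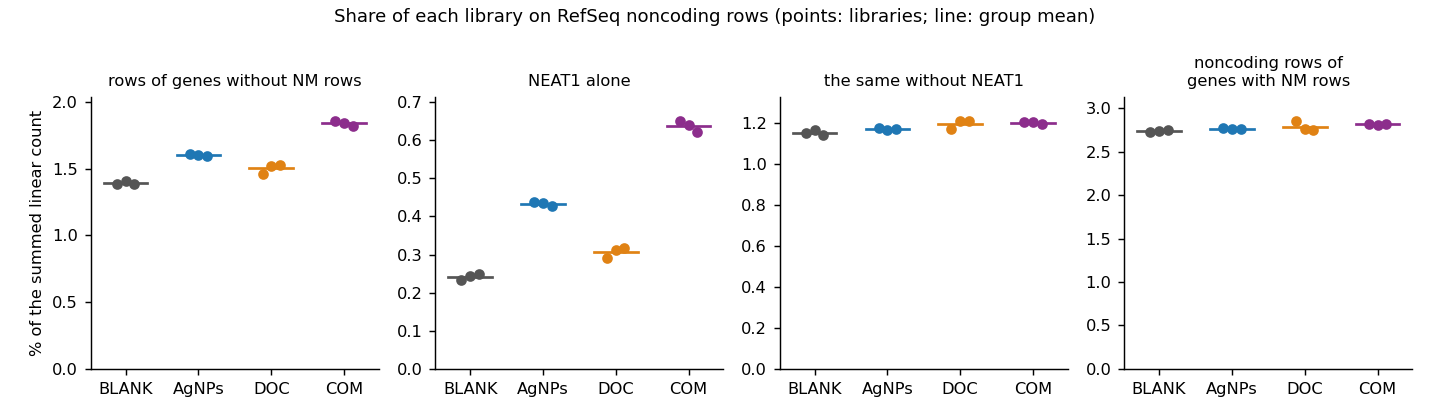
Percent of each library's summed linear expected count on rows of noncoding genes, on NEAT1 alone, on the same rows without NEAT1, and on noncoding isoforms; points are libraries and lines group means. The noncoding genes sit lowest in BLANK (mean 1.39%) and highest in COM (mean 1.84%), and without NEAT1 the means lie between 1.15% and 1.20%.

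The highest mean levels per transcript length in BLANK were those of SNHG16, LOC101928902, H3P6, SNHG29 and NEAT1. In BLANK, the snoRNA host gene SNHG16 had a mean of 170.25 FPKM (the deposited fragment value scaled by transcript length and library size), the LOC101928902 transcript 134.9, the histone pseudogene H3P6 131.7, and the snoRNA host gene SNHG29 116.1. NEAT1 followed at 102, 108 and 109 FPKM in the BLANK libraries. It was at 193, 192 and 188 FPKM in AgNPs, 128, 137 and 139.7 in DOC and 286, 282 and 274 in COM. NEAT1 was below SNHG16 in BLANK and above it in AgNPs, where SNHG16 had a mean of 164.5 FPKM. These levels are a description and were not compared by a test across genes.

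AgNPs raised a small group of noncoding genes well beyond the spread between libraries, NMRAL2P and NEAT1 among them. With the RefSeq rows of each gene summed, 136 of 1745 tested noncoding genes rose and 107 fell against BLANK, called at an adjusted p under 0.05 in edgeR's quasi-likelihood test. That is 13.9% of them, where 36.3% of all 14787 genes were called (16.9% higher and 19.4% lower). Changes of at least 2-fold were called for 27 genes upward and 17 downward. The median log2 difference was 0.045 over the noncoding genes and -0.003 over all genes.

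NMRAL2P (chr3:185959943-185980877), a transcribed pseudogene known as a target of the oxidative stress factor NRF2, stood at 0.732, 0.720 and 0.721 CPM in BLANK. It reached 18.9, 15.8 and 14.8 CPM in AgNPs, was at 1.32, 0.786 and 0.420 in DOC, and reached 24, 28.1 and 27.1 in COM. The AgNPs and COM libraries lay far above the others, and the DOC libraries overlapped BLANK. Its log2 difference from BLANK was 4.49 ± 0.19 (SE) in AgNPs (edgeR adjusted p = 1.3e-16) and 5.17 ± 0.18 in COM. The DOC difference was 0.20 ± 0.32 (edgeR adjusted p = 0.73).

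NEAT1 (chr11:65422798-65445540) was at 2742, 2856 and 2911 CPM in BLANK, 5119, 5102 and 4961 in AgNPs, 3390.4, 3637 and 3691 in DOC, and 7726, 7623 and 7390.5 in COM. No library of any group overlapped another group. The log2 differences from BLANK were 0.84, 0.33 and 1.42, each ± 0.03, for AgNPs, DOC and COM (edgeR adjusted p = 1.1e-07 for the weakest, DOC). LINC00880 (chr3:157081667-157123002) was at 6.33, 5.81 and 6.64 CPM in BLANK, 12.5, 11.8 and 12.6 in AgNPs, 7.52, 6.29 and 7.56 in DOC, and 18.5, 19.9 and 17.2 in COM. It rose by 0.97 ± 0.11 in AgNPs and 1.56 ± 0.10 in COM on the log2 scale, while its DOC value (0.19 ± 0.11) did not pass.

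PTGES2-DT (chr9:128128529-128130634), transcribed divergently from the prostaglandin E synthase gene PTGES2, was at 15.9, 14.4 and 15.3 CPM in BLANK, 28.0, 27.7 and 26.7 in AgNPs, 14.5, 13.6 and 12.1 in DOC, and 32.6, 27.6 and 32.8 in COM. It rose by 0.85 ± 0.08 in AgNPs on the log2 scale (edgeR adjusted p = 1.1e-09), while its coding neighbour PTGES2 fell by 0.19. LINC02604, whose promoter is shown above, went from 6.12, 4.47 and 5.92 CPM in BLANK to 8.16, 7.73 and 7.48 in AgNPs (log2 difference 0.50 ± 0.13) and 12.9, 11.8 and 14.7 in COM (1.26 ± 0.13). Its DOC libraries, at 6.21, 7.50 and 7.02 CPM, did not differ beyond the test (edgeR adjusted p = 0.085). ATP2C2-AS1 and PPP4R1L rose by 0.56 and 0.85 in AgNPs and by 1.12 and 1.13 in COM.

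HIF1A-AS2 (chr14:61747039-61749089), antisense to the hypoxia factor gene HIF1A and known to be induced by low oxygen, was scarce in BLANK at 0.889, 0.822 and 0.361 CPM. It was at 2.28, 2.75 and 2.23 CPM in AgNPs, 0.689, 0.605 and 1.14 in DOC, and 5.71, 5.06 and 6.70 in COM. The log2 difference was 1.80 ± 0.31 in AgNPs (edgeR adjusted p = 3e-05) and 3.06 ± 0.28 in COM (edgeR adjusted p = 3.9e-10). HIF1A-AS3 rose by 1.96 and 3.83 in the same comparisons from at most 0.206 CPM in BLANK. Their partner HIF1A itself fell, by 0.15 in AgNPs and 0.21 in COM. The sources used here do not say whether counting used the strand, so reads of an antisense RNA and of an overlapping partner may not be told apart.

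Of the noncoding genes named for their fall in AgNPs, LINC03117 fell the most. It was at 5.86, 4.21 and 4.33 CPM in BLANK, 3.07, 2.75 and 1.96 in AgNPs, 3.45, 3.02 and 3.78 in DOC and 1.29, 1.61 and 1.73 in COM. The log2 differences were -0.88 in AgNPs and -1.63 in COM (edgeR adjusted p = 0.00073 and 7.2e-07). Its RefSeq rows held 21.2% of its count, and with all rows the values were -0.92 and -1.46. EDIL3-DT fell by 0.78 in AgNPs, a call lost with all rows (-0.19) and without AgNPs replicate 3 (edgeR adjusted p = 0.066), and the pseudogene NSUN5P1 fell by 0.77 (by 0.35 with all rows). VPS9D1-AS1, antisense to VPS9D1, fell from 63.0, 70.4 and 69.1 CPM in BLANK to 45.6, 43.3 and 49.4 in AgNPs, and stood at 45.8, 42.2 and 48.6 in COM. The treated libraries lay below every BLANK library, and the log2 differences were -0.55 ± 0.06 and -0.57 ± 0.06 (edgeR adjusted p = 2.8e-08 and 1.2e-08). Its partner VPS9D1 rose by 0.43 and 0.78. HOTTIP, an RNA from the end of the HOXA cluster that is known to bring a histone methyltransferase to HOXA genes, fell from 17.8, 17.5 and 18.3 CPM to 13.5, 10.3 and 13.2 in AgNPs and 11.5, 10.3 and 10.3 in COM, against 16.0, 18.1 and 18.4 in DOC. The pseudogene LRRC37A4P fell from 133, 131 and 129 CPM to 100.4, 102 and 103 in AgNPs, 117, 117 and 124 in DOC and 88.3, 85.7 and 94.2 in COM (log2 -0.36, -0.13 and -0.55, all called). CTNNA3-AS1 fell by 0.47 in AgNPs and 0.53 in COM, and DUXAP9 by 0.27 and 0.31. LRRC37A4P and DUXAP9 have near-identical relatives, so their reads may be split with them.

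**Figure D2:**
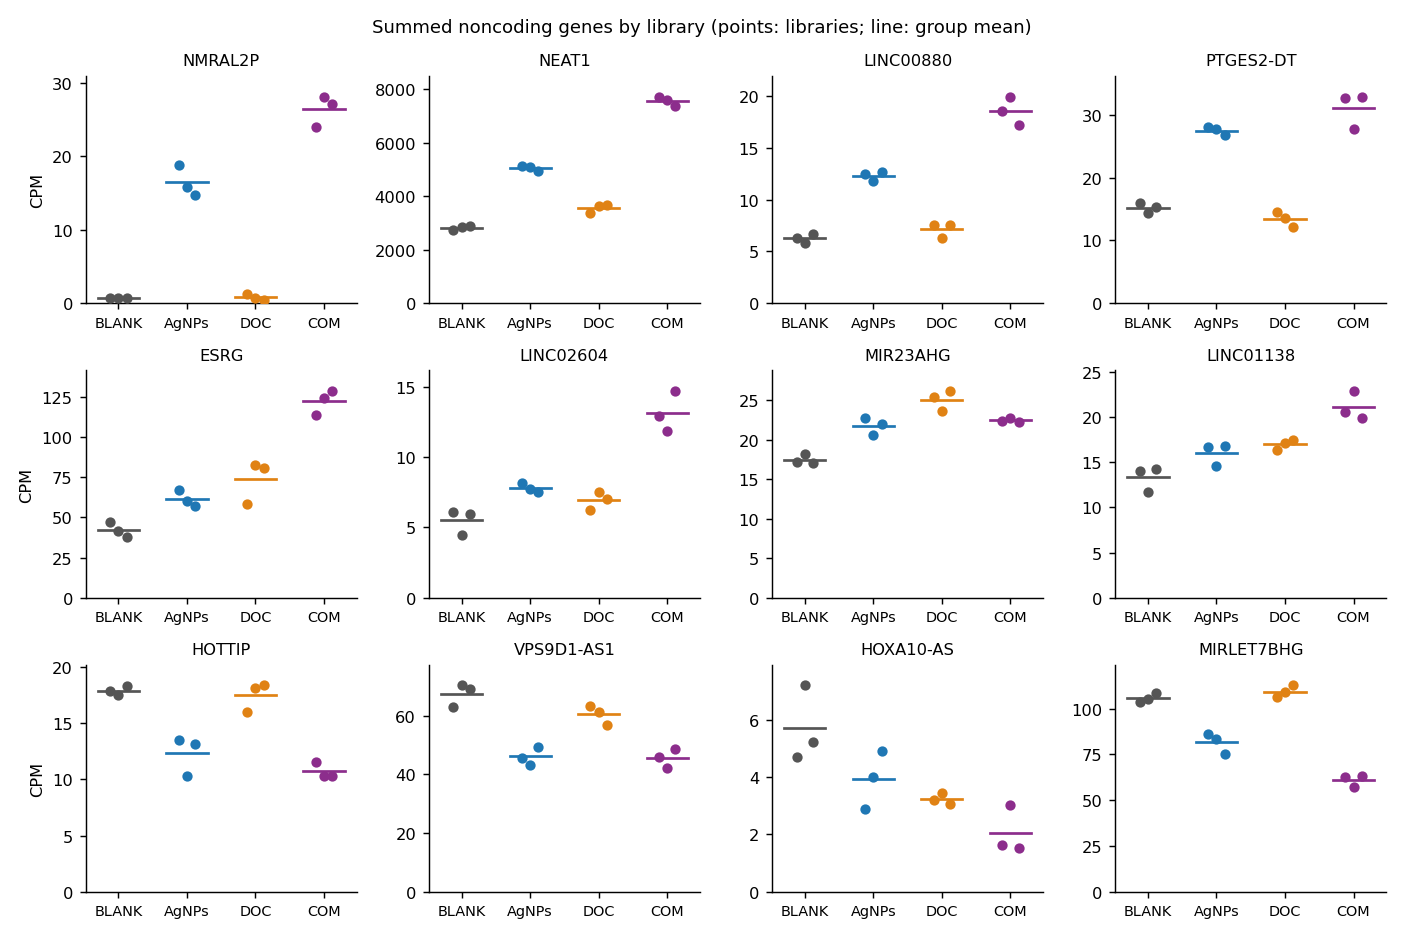
TMM-scaled CPM of 12 noncoding genes in each library (points, with group means as lines), each panel with its own axis from 0. NMRAL2P is at 14.8 to 28.1 CPM in AgNPs and COM against at most 1.32 in BLANK and DOC, and NEAT1 separates all 4 groups.

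DOC changed fewer noncoding genes than AgNPs did, and more of its calls were upward. Of 1745 noncoding genes, 103 rose and 34 fell against BLANK (7.85%), where 15.6% of all genes were called (5.67% higher and 9.88% lower). The median log2 difference was 0.078 over the noncoding genes and -0.010 over all genes. AgNPs and DOC were both set against the same BLANK libraries, so their lists are not independent.

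ESRG (chr3:54632124-54639857), a transcript known from embryonic stem cells, rose the most of the genes named for DOC, from 47.0, 41.7 and 37.8 CPM in BLANK to 58.2, 82.9 and 81.2. It was at 67.2, 60.6 and 57.3 CPM in AgNPs and 114, 124 and 129 in COM, the highest group. The log2 differences were 0.55 ± 0.16 in AgNPs, 0.82 ± 0.14 in DOC and 1.54 ± 0.14 in COM (edgeR adjusted p = 0.023, 0.0063 and 1.9e-05). MIR23AHG, host of the miR-23a, miR-27a and miR-24 sequences above, was at 17.2, 18.2 and 17.1 CPM in BLANK and 25.4, 23.7 and 26.2 in DOC, higher than its 22.7, 20.6 and 22 in AgNPs and 22.4, 22.8 and 22.3 in COM. Its log2 differences were 0.32 ± 0.07, 0.52 ± 0.07 and 0.36 ± 0.07 for AgNPs, DOC and COM, all called. H4C15, a replication-dependent histone H4 gene whose member row is typed noncoding, rose in DOC (16.5, 15.1 and 15.7 CPM against 11.1, 10.4 and 10.8 in BLANK) and fell in AgNPs (8.33, 9.32 and 9.08).

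The pseudogene RALGAPA1P1 rose by 0.42, 0.49 and 0.56 on the log2 scale in AgNPs, DOC and COM, and LINC01000 rose by 0.26, 0.20 and 0.66. Downward in DOC, the pseudogene ZNRF2P2 went from 15.2, 13.7 and 12.8 CPM to 8.65, 10.04 and 8.76 (log2 -0.60), and stood at 7.75, 6.88 and 8.43 in COM (-0.85). Its AgNPs libraries, at 12.1, 15 and 10.6 CPM, overlapped BLANK. SLFNL1-AS1 fell in all 3 comparisons, by 0.24, 0.30 and 0.38, and the pseudogene AFG3L1P fell in DOC by 0.36. PWAR5, from the imprinted Prader-Willi region, was at 4.39, 4.42 and 4.38 CPM in DOC against 2.98, 2.72 and 2.37 in BLANK (log2 0.71, called). With all annotated rows of that gene summed, its DOC difference was 0.49 and did not pass (edgeR adjusted p = 0.34).

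COM, the joint treatment, changed the most noncoding genes and moved several of those named above past either treatment alone. Against BLANK, 341 of 1745 noncoding genes rose and 168 fell (29.2%), where 54.0% of all genes were called (25.8% higher and 28.1% lower). The median log2 difference was 0.115 over the noncoding genes against 0.002 over all genes, and 113 genes rose and 31 fell by at least 2-fold. Against AgNPs, 131 were higher and 44 lower in COM (all genes, 23.7% called, 11.4% higher and 12.2% lower). Against DOC, 179 were higher and 147 lower (18.7%, with 42.6% of all genes called, 21.2% higher and 21.4% lower). NMRAL2P was higher in COM than in AgNPs by 0.68 ± 0.12, LINC00880 by 0.59 ± 0.10 and LINC02604 by 0.75 ± 0.13. NEAT1 was higher by 0.58 ± 0.03 and ESRG by 0.99. PTGES2-DT in COM (0.18 ± 0.08 over AgNPs, edgeR adjusted p = 0.11) and VPS9D1-AS1 (-0.02 ± 0.07, edgeR adjusted p = 0.88) did not pass that comparison.

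Whether the joint treatment differed from the sum of both on the log2 scale was tested with the interaction term. It was called for 12 noncoding genes, 7 upward and 5 downward (all genes, 1.08%, with 0.751% upward and 0.325% downward). NEAT1 exceeded the sum by 0.25 ± 0.04 (edgeR adjusted p = 0.0021). MIRLET7BHG, host of the let-7a and let-7b sequences above, was at 104, 105 and 108 CPM in BLANK and 106, 109 and 113 in DOC, and fell to 86.2, 83.7 and 75.4 in AgNPs and 62.9, 57.4 and 63.4 in COM. Its COM value lay below the sum by a log2 interaction of -0.47 (edgeR adjusted p = 0.00031). MIR23AHG also had a negative term, -0.47 ± 0.10 (edgeR adjusted p = 0.015), since it rose in each treatment and no further in COM. That call was absent when all annotated rows of the gene were summed, and in DESeq2. NMRAL2P (0.48 ± 0.35) and LINC00880 (0.40 ± 0.15) did not pass the interaction test.

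**Figure D3:**
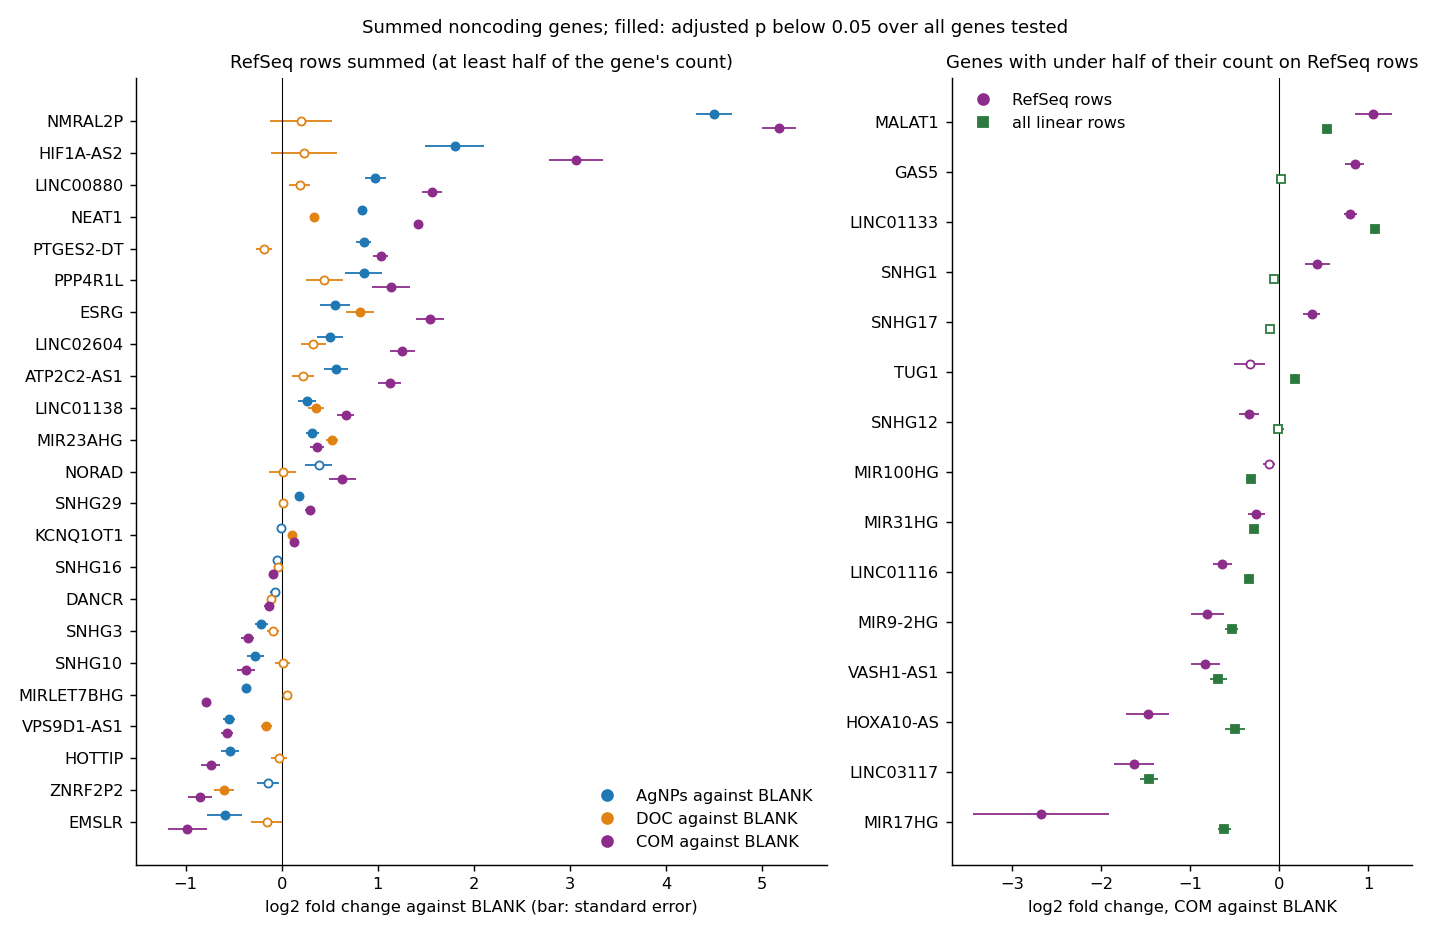
Log2 differences from BLANK with standard errors; filled symbols passed the edgeR adjusted p. The left panel shows 23 noncoding genes with at least 50% of their linear count on RefSeq rows, where NMRAL2P and HIF1A-AS2 lie farthest right; the right panel shows 15 genes with less, in COM, where GAS5 is 0.85 on its RefSeq rows and 0.02 on all linear rows.

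By symbol, 29.9% of LINC genes and 31.2% of pseudogenes were called in COM, near the 29.2% of all noncoding genes, of which 341 rose and 168 fell. The share was 44.1% for host genes, 22.2% for antisense genes and 16.9% for divergent genes. Of 147 LINC genes, 21 rose and 5 fell in AgNPs, 11 and 1 in DOC, and 32 and 12 in COM. Of 285 pseudogenes, 28 rose and 12 fell in AgNPs, 16 and 7 in DOC, and 66 and 23 in COM. The 216 antisense genes had 14 up and 13 down in AgNPs, 4 and 5 in DOC, and 28 and 20 in COM. Of 34 snoRNA and microRNA host genes by symbol, 3 rose and 5 fell in AgNPs, 1 and 3 in DOC, and 5 and 10 in COM. By coordinates, without regard to strand, the tally differed. Of 40 genes with a snoRNA inside, 2 rose and 2 fell in AgNPs, 2 and 1 in DOC, and 11 and 6 in COM (42.5% called). The 77 divergent genes had 2 up and 3 down in AgNPs, 1 up and 0 down in DOC, and 8 up and 5 down in COM. Differences between these kinds were not tested, and reads of pseudogenes may be split with their parent genes.

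Antisense and divergent genes were also set beside their coding partners. Of 181 antisense genes with a tested partner, 41 were called in COM, and in 25 of these pairs the partner was called too, 16 in the same direction and 9 in the opposite one. Of all genes with NM rows, 58.5% were called in COM and 40.4% in AgNPs. In AgNPs 25 were called, with 9 pairs in the same and 7 in the opposite direction. Of 75 divergent genes, 12 were called in COM, with 5 pairs in the same and 3 in the opposite direction. HOTTIP's neighbourhood gave another case: HOXA10-AS, with 37.9% of its linear count on RefSeq rows, fell by 0.54 in AgNPs and 1.47 in COM (by 0.43 and 0.49 with all rows) while HOXA10 fell by 0.21 and 0.42. Its DOC fall of 0.82 lost its call without BLANK replicate 2 (edgeR adjusted p = 0.074) and when all rows of the gene were summed.

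Among the listed snoRNA host genes the calls went both ways. Of 24 tested out of a list of 30, AgNPs raised 2 and lowered 2, DOC lowered 2, and COM raised 5 and lowered 6, with medians of 0.07, 0.01 and -0.02 on the log2 scale. Over all 1745 noncoding genes 13.9%, 7.85% and 29.2% were called. SNHG29 rose from 126, 139 and 122 CPM in BLANK to 146, 145 and 147 in AgNPs and 146, 166 and 163 in COM, with 131, 129 and 132 in DOC (log2 0.18, 0.29 and 0.02). SNHG3 fell from 62.4, 60.3 and 64.3 CPM to 56.1, 54.8 and 50.4 in AgNPs and 53.9, 45.0 and 47.4 in COM, and SNHG10 fell by 0.28 and 0.38 in the same comparisons. Without 1 library the AgNPs calls were lost for SNHG3 (BLANK replicate 3 or AgNPs replicate 3, edgeR adjusted p up to 0.081) and SNHG10 (BLANK replicate 2 or AgNPs replicate 1, up to 0.13). SNHG16, the most abundant, fell in COM by only 0.09 (480.2, 479 and 477 CPM in BLANK against 442, 454.5 and 454), a call lost without COM replicate 1 (edgeR adjusted p = 0.078).

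GAS5, a snoRNA host whose spliced RNA is a classic target of nonsense-mediated decay, shows how the choice of rows matters. Its RefSeq rows held 16.3% of its linear count, at 11.2, 12.1 and 9.79 CPM in BLANK, 14.1, 14.0 and 17.4 in AgNPs, 12.8, 11.5 and 13.1 in DOC and 22.9, 19.9 and 16.9 in COM. On those rows it rose by 0.46 in AgNPs and 0.85 in COM. With every linear row of the gene summed, the values were -0.04 and 0.02, neither called. SNHG1 (28.0% on RefSeq rows) likewise went from 0.43 to -0.06 in COM, SNHG17 from 0.37 to -0.10, and SNHG12 from -0.33 to -0.01. The SNHG1 call in COM was also lost without BLANK replicate 2 or 3 or any COM library (edgeR adjusted p up to 0.095). In DOC, SNHG8 (-0.34) and SNHG21 (-1.26) were called on RefSeq rows and not with all rows (-0.17 and 0.14).

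This dependence reached beyond host genes. For 516 of 1755 noncoding genes the RefSeq rows held under 50% of the linear count, and for 874 at least 90%. With all linear rows summed, 362 noncoding genes tested both ways were called in AgNPs, 212 in DOC and 668 in COM. Shared calls in the same direction numbered 211 of the 243 in AgNPs, 116 of the 137 in DOC and 447 of the 509 in COM. In AgNPs and in COM 1 gene, LOC107985295, was called in opposite directions. LINC-PINT, a p53-linked RNA with 2.62% of its count on RefSeq rows, did not pass on those rows in any treatment (-0.01, -0.32 and -0.12) but rose with all rows by 0.23 in AgNPs and 0.40 in COM. TUG1 (20.5%) gave -0.33 in COM, not called, and 0.18 with all rows, called.

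MicroRNA host genes had 10 tested members out of a list of 32. On that list 2 rose and 2 fell in AgNPs, 2 and 1 in DOC, and 2 and 3 in COM. LINC01138 and MIR23AHG rose in all 3 treatments. LINC01138, in which coordinates placed no hairpin, was at 14.1, 11.7 and 14.2 CPM in BLANK and 20.6, 22.9 and 19.9 in COM (log2 0.26, 0.35 and 0.66 in AgNPs, DOC and COM). Its AgNPs call was lost without BLANK replicate 2, AgNPs replicate 1 or AgNPs replicate 3 (edgeR adjusted p up to 0.14). MIRLET7BHG fell by 0.37 in AgNPs and 0.79 in COM, with 0.05 in DOC. MIR100HG, host of miR-100, fell in AgNPs by 0.24, a call lost without AgNPs replicate 1 (edgeR adjusted p = 0.063), and by 0.25 with all rows. MIR31HG, host of miR-31 with 1.43% of its count on RefSeq rows, fell in COM by 0.26, a call lost in DESeq2 and without BLANK replicate 1 or COM replicate 2 or 3 (edgeR adjusted p up to 0.20). With all rows it fell by 0.23 in AgNPs and 0.28 in COM. MIR17HG fell on RefSeq rows by 3.02 in DOC and 2.68 in COM, from 6.07, 5.40 and 3.14 CPM in BLANK to 1.13, 0.121 and 0.540 in DOC and 1.72, 0 and 0.540 in COM. Those rows held 5.16% of the gene, and with all rows the values were -0.17 in DOC, not called, and -0.62 in COM, called. The DOC call was lost without BLANK replicate 1 or 2 or DOC replicate 2 or 3 (edgeR adjusted p up to 0.081), and the COM call without COM replicate 3 (0.060). Coordinates placed a microRNA hairpin inside 43 tested noncoding genes, of which 7 rose and 8 fell in AgNPs (34.9% called), 1 and 4 in DOC (11.6%), and 12 and 11 in COM (53.5%). Of 1400 genes with neither a hairpin nor a snoRNA inside, 12.4%, 7.0% and 27.3% were called. Strand was not compared in this placing, and a hairpin inside overlapping genes was counted for each of them. The difference was not tested.

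Of 10 tested RNAs on a list of 17 headed nuclear-retained, NEAT1 rose in every treatment. The heading does not give the place of each listed RNA in the cell, which was not measured here. KCNQ1OT1, which silences its imprinted neighbours in cis, rose slightly in COM, by 0.13 ± 0.03, from 322, 315 and 302 CPM in BLANK to 346, 340.2 and 343. In DOC (337, 339.5 and 337 CPM) it rose by 0.11 ± 0.03, a call lost without BLANK replicate 3 (edgeR adjusted p = 0.068), and in AgNPs (317, 307 and 308) it did not pass. NORAD, which holds Pumilio proteins, was at 222, 213 and 154 CPM in BLANK and 308, 296 and 307 in COM (log2 0.63 ± 0.14, edgeR adjusted p = 0.0052). Its AgNPs libraries, 254, 262 and 252 CPM, lay above BLANK but did not pass (edgeR adjusted p = 0.067). With all rows, of which RefSeq rows held 75.4%, NORAD rose by 0.55 in AgNPs (edgeR adjusted p = 7.4e-17) and 0.64 in COM. MALAT1, of nuclear speckles, had 0.218% of its count on RefSeq rows, which rose in COM by 1.06 (19.5, 28.6 and 28.2 CPM against 11.7, 12.2 and 12.7). With all rows it rose in AgNPs, DOC and COM, by 0.38, 0.14 and 0.54. HOTTIP fell in AgNPs and COM, OIP5-AS1 fell in COM by 0.19, and TINCR rose in COM by 0.70. Without 1 of 4 libraries the OIP5-AS1 call was lost (BLANK replicate 1 or 2, COM replicate 2 or 3, edgeR adjusted p up to 0.079), and without 1 of 5 that of TINCR (BLANK replicate 1 or 3, AgNPs replicate 3, COM replicate 1 or 2, up to 0.15).

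Few prostate cancer lncRNAs were tested, 10 of 35 listed, and these lists were drawn up with earlier results of these data known. In AgNPs 1 fell and 0 rose, in DOC 0 passed, and in COM 3 rose and 2 fell. LINC01116 fell from 22.6, 23.6 and 20.5 CPM in BLANK to 16.8, 12 and 17.2 in AgNPs and 13.6, 15.8 and 13.5 in COM, with 20.7, 20.8 and 18.8 in DOC (log2 -0.53, -0.64 and -0.14). Its RefSeq rows held 17.2% of its count, and with all rows it fell by 0.30 in AgNPs and 0.34 in COM. SCHLAP1, an RNA linked to aggressive prostate cancer, fell in COM by 0.51, from 12.9, 12 and 12.2 CPM to 7.97, 9.04 and 8.97 (12.5% on RefSeq rows, and a fall of 0.30 with all rows). PCAT5 rose in COM by 1.91 from at most 0.575 CPM in BLANK to 1.51, 2.90 and 1.51. PCAT7 rose in COM by 0.63 (0.65 with all rows), a call lost in DESeq2 and without BLANK replicate 2 or COM replicate 1 or 3 (edgeR adjusted p up to 0.077), and SNHG1 rose in COM on its RefSeq rows only. Of 5 tested hypoxia-linked RNAs, NEAT1, HIF1A-AS2 and HIF1A-AS3 rose in AgNPs, and these and LINC01278 (0.54) rose in COM. LINC01278 had 12.6% of its count on RefSeq rows and gave 0.16 with all rows, also called. HIF1A-AS3, too scarce in BLANK to be chosen at that level, adds no evidence to this tally. Of 9 tested stress-linked RNAs, NMRAL2P rose in AgNPs and COM, CYTOR rose in COM (0.50), and CEBPA-DT fell in COM (-0.77). CYTOR had 4.58% of its count on RefSeq rows, and with all rows it rose by 0.14 in AgNPs and 0.22 in COM. The CEBPA-DT call was lost with all rows (-0.31, edgeR adjusted p = 0.17) and in 10 of 12 fits that left out a library (BLANK replicates 1 and 2, every AgNPs and DOC library, COM replicates 2 and 3, edgeR adjusted p up to 0.32). The p53-linked list had 5 tested members, of which GAS5 and NEAT1 rose in AgNPs and COM and NEAT1 in DOC. Of 36 structured small RNAs, 0 had a tested sum. This does not show low levels, since RNAs without any row, such as RMRP and RN7SK, have no value.

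MIR22HG, one of the genes named whatever their result, was at 0.889, 0.257 and 1.85 CPM in BLANK and 4.91, 1.69 and 0.979 in AgNPs, groups that overlapped (edgeR adjusted p = 0.31). H19, PVT1, LUCAT1 and PCAT6 had 27, 4, 2 and 6 counts in all on their NR and XR rows and were not tested. Over all linear rows they had 27, 62935, 2452 and 117, so PVT1, LUCAT1 and PCAT6 lay mostly on other annotations. MIR210HG had 0 NR or XR rows and 945 linear counts. RMRP and RN7SK had 0 linear rows.

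Noncoding isoforms were harder to measure than noncoding genes. A noncoding isoform held a median of 5.22% of its gene's counts, 79 held at least 50%, and 3803 held under 10%. Among rows with sums of at least 1000, the median coefficient of variation over the 3 BLANK libraries was 15.2% for 1261 noncoding isoforms, 7.02% for 448 rows of noncoding genes and 8.12% for 12072 NM rows. Summing by gene brought it to 6.56% for 474 noncoding genes and 3.68% for 10387 genes with NM rows. In at least 1 of 4 groups, 123 of the 1261 isoforms (9.75%) were at 0 in a library beside 30 or more in another. This was also true of 19.6% of the 408 that held under 10% of their gene. The expected counts share reads between isoforms by a model, and its part in these zeros was not tested.

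**Figure D4:**
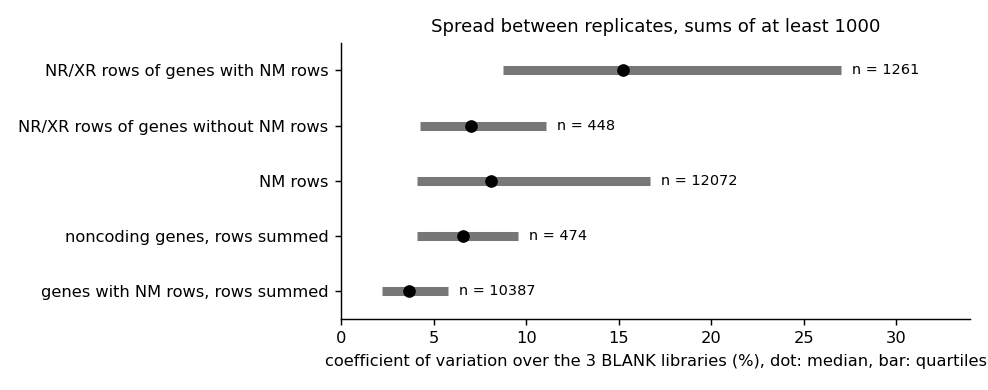
Coefficient of variation in percent over the 3 BLANK libraries for 5 sets of rows or gene sums with at least 1000 counts over the 12 libraries (dot, median; bar, quartiles). Noncoding isoforms have the widest spread, with a median of 15.2%, and summed genes with NM rows the narrowest, 3.68%.

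At the level of single rows, few were called. In AgNPs, 20 isoforms rose and 11 fell, and 13 rows of noncoding genes rose and 10 fell, with 2.09% of all 73953 linear rows called (0.863% higher and 1.23% lower). In DOC, 1 isoform and 3 rows of noncoding genes rose and none fell (all rows, 0.2%, with 0.0581% higher and 0.142% lower). In COM, 87 isoforms rose and 76 fell, and 65 and 56 rows of noncoding genes did (all rows, 6.82%, with 2.54% higher and 4.28% lower). The isoforms called in COM are 3.07% of the 5315 tested, and the rows of noncoding genes 5.54% of 2183. COM differed from AgNPs for 33 isoforms and 11 rows of noncoding genes (all rows, 1.17%, with 0.354% higher and 0.818% lower) and from DOC for 87 and 69 (all rows, 3.72%, with 1.57% higher and 2.15% lower). The interaction was called for 3 isoforms (all rows, 0.0284%, with 0.0135% upward and 0.0149% downward).

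Noncoding isoforms of stress response genes on the lists rose in AgNPs and COM. By sums of a gene's NR and XR rows, 8 of 10 tested targets of ATF4, the factor of the integrated stress response, rose in AgNPs and in COM, with medians of 1.19 and 1.88 on the log2 scale, and 1 rose in DOC (median 0.34). Over 3212 genes with NM rows, 6.16% of noncoding sums were called in AgNPs (3.92% higher and 2.24% lower), 1.34% in DOC (1.09% higher and 0.249% lower) and 14.5% in COM (8.97% higher and 5.57% lower), with medians of 0.04, 0.05 and 0.10. The sestrin SESN2 rose by 3.28 in AgNPs and 4.24 in COM, the stress factor ATF3 by 2.68 and 3.51 (and 0.98 in DOC), and the mitochondrial folate enzyme MTHFD2 by 0.84 and 0.76. SLC7A11, the cystine transporter that both ATF4 and NRF2 control, rose by 2.24 and 2.99. Among 6 tested NRF2 targets, ABCC3 (1.68 and 2.06), AKR1B10 and SLC7A11 rose in AgNPs and COM, SLC6A6 rose in COM alone of the 3 treatments, and none passed in DOC. AKR1B10's noncoding row had 5 counts in all of BLANK and 0 in DOC. It was at least 65.2-fold higher in COM than DOC (floor of 3 counts over the group). With so few counts in BLANK and DOC, this row could be chosen and tested only through AgNPs and COM. That choice set the direction of its change, so AKR1B10 is described here and adds no evidence to the tally of NRF2 targets. For most of these genes the coding rows moved as well: ATF3's coding sum rose by 3.10, 1.19 and 4.13, and no NRF2 target's noncoding sum differed from its coding sum.

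Whether noncoding rows moved apart from the coding rows of their gene was tested directly for 3212 genes with NM rows. In AgNPs the noncoding sum moved up against the coding sum in 6 genes and down in 2 (0.246% of 3253 genes with both kinds of row called, 0.184% up and 0.0615% down). In DOC it did so in 10 and 2 (0.369%, with 0.307% up and 0.0615% down), and in COM in 47 and 27 (2.31%, with 1.48% up and 0.83% down). The median of noncoding minus coding log2 difference was 0.064, 0.085 and 0.144. Over genes with both, noncoding rows held a mean of 13.0% of RefSeq counts in BLANK, 13.4% in AgNPs, 13.6% in DOC and 14.0% in COM. Testing each row against the other rows of its gene called fewer of 5298 isoforms. In AgNPs 2 gained share and 0 lost it (all RefSeq rows, 0.0336% and 0.0242%, together 0.0578%). In DOC 1 gained and 3 lost share (0.0336% and 0.0317%, together 0.0652%). In COM 8 gained and 7 lost share (0.121% and 0.173%, together 0.295%).

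SHMT2, the mitochondrial serine hydroxymethyltransferase, had 3.84%, 3.05% and 4.40% of its RefSeq count on noncoding rows in BLANK and 6.32%, 8.56% and 8.44% in AgNPs. The share was 5.38%, 4.59% and 5.21% in DOC and 12.4%, 12.2% and 11.3% in COM. Its noncoding sum rose by 1.23 in AgNPs and 1.93 in COM on the log2 scale, its coding sum by 0.13 and 0.14, and the difference was called in both (edgeR adjusted p = 0.00022 and 1.1e-07). SARS1, the seryl-tRNA synthetase, went from 14.2%, 13.9% and 15.1% in BLANK to 20.6%, 22% and 21.7% in AgNPs and 24.9%, 23.9% and 25.2% in COM, with 16.1%, 16.0% and 17.6% in DOC. There the noncoding sum rose by 1.11 and 1.55 and the coding sum by 0.41 and 0.59 (edgeR adjusted p of the difference 3.1e-05 and 1.1e-07). SLC3A2, the partner of SLC7A11, differed in COM, by 1.84 against 0.93 (edgeR adjusted p = 0.0024), with an adjusted p of 0.33 in AgNPs.

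Of 16 tested SR splicing proteins and relatives, the noncoding sum moved up against the coding sum in 1 in AgNPs, 2 in DOC and 4 in COM, and down in 0. SRSF3, known for a poison exon through which it limits itself, had 11.5%, 11.2% and 10.5% of its count on noncoding rows in BLANK, 17.0%, 14.1% and 16.6% in AgNPs, 14.9%, 18.0% and 15.7% in DOC and 27.0%, 24% and 27.0% in COM. Every treated library exceeded every BLANK library. In COM its noncoding sum rose by 1.19 ± 0.10 while its coding sum fell by 0.30 (edgeR adjusted p of the difference 1.3e-08). The difference was also called in AgNPs (0.43 against -0.17, edgeR adjusted p = 0.0047, lost at 0.0501 without AgNPs replicate 1) and in DOC (0.48 against -0.16, edgeR adjusted p = 0.0018). SRSF5 went from 16.2%, 15.6% and 15.1% in BLANK to 23.1%, 22.3% and 24.4% in DOC and 23.9%, 25.2% and 26.6% in COM. Its AgNPs libraries, 17.0%, 19.4% and 21.2%, did not pass (edgeR adjusted p = 0.26). SRSF6 and HNRNPDL moved the same way in COM (edgeR adjusted p = 0.018 and 0.0031). Of 16 tested genes of this list, noncoding sums rose in COM for CLK1, HNRNPDL, SRSF3 and SRSF5 and fell for HNRNPA2B1, SON and SRSF2. The calls of SON and SRSF2 were lost without single libraries (SON without BLANK replicate 1, COM replicate 2 or COM replicate 3, edgeR adjusted p up to 0.077; SRSF2 without any of 6, BLANK replicates 2 and 3, AgNPs replicate 2, DOC replicate 2 and COM replicates 1 and 3, up to 0.15).

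**Figure D5:**
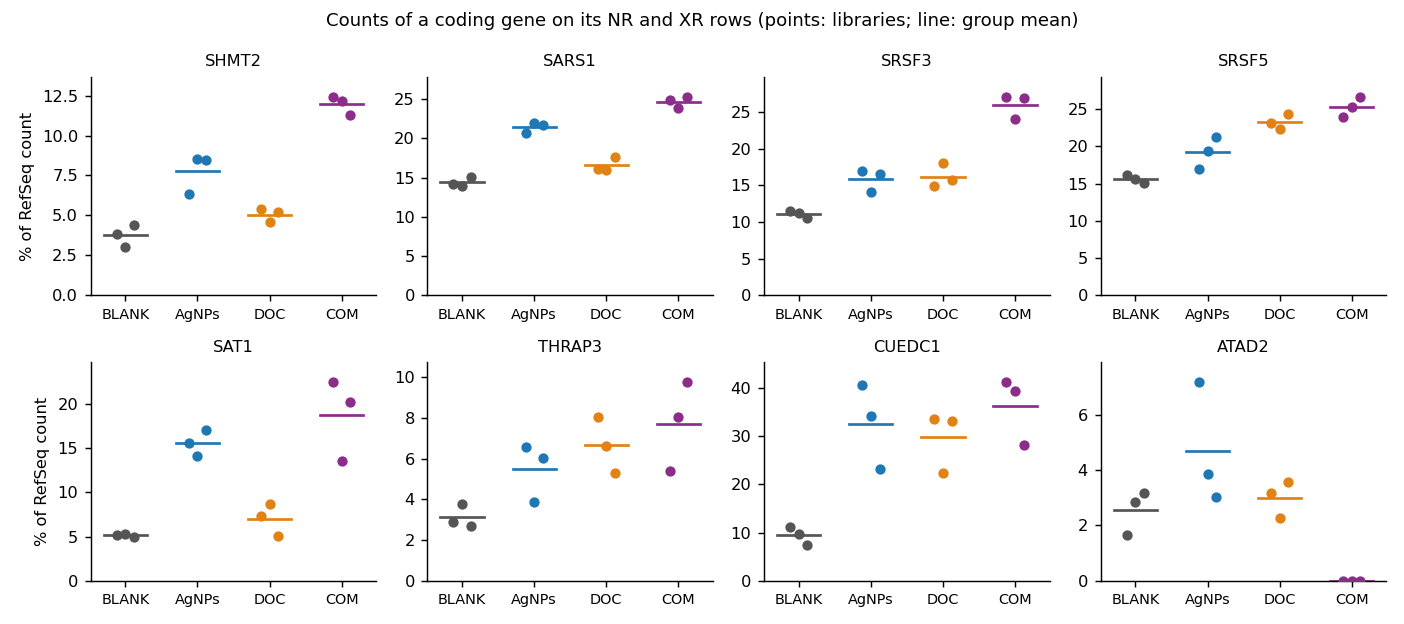
Percent of a coding gene's RefSeq count that lies on its NR and XR rows in each library (points, with group means as lines) for 8 genes, each panel with its own axis from 0. SRSF3 goes from 10.5% to 11.5% in BLANK to 24% to 27.0% in COM, and ATAD2 is at 0 in all 3 COM libraries.

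SAT1, the polyamine-degrading enzyme whose poison-exon transcript is known to be controlled by polyamines, had 5.17%, 5.30% and 5.0% of its count on noncoding rows in BLANK, 15.6%, 14.1% and 17.1% in AgNPs, 7.30%, 8.71% and 5.12% in DOC and 22.4%, 13.6% and 20.2% in COM. Its noncoding sum rose by 2.32 in AgNPs and 3.17 in COM and its coding sum by 0.56 and 1.11. The difference passed in COM (edgeR adjusted p = 0.014), a call lost without any BLANK library, COM replicate 1 or COM replicate 3 (up to 0.086), and not in AgNPs (0.16). CUEDC1 was at 11.2%, 9.63% and 7.46% in BLANK, 40.6%, 34.2% and 23.1% in AgNPs, 33.6%, 22.5% and 33.2% in DOC and 41.2%, 39.5% and 28.1% in COM. It was called in all 3 (edgeR adjusted p = 0.0047, 0.01 and 0.0008). Those calls were lost in AgNPs without BLANK replicate 3 (edgeR adjusted p = 0.0509) and in DOC without BLANK replicate 3 or DOC replicate 3 (up to 0.071). BUD23, an rRNA methyltransferase, went from 27.0%, 28.4% and 28.2% to 37.3%, 40.1% and 40.5% in COM (edgeR adjusted p = 0.00018). THRAP3, a splicing-associated protein, went from 2.88%, 3.78% and 2.71% to 5.38%, 8.03% and 9.76% in COM (edgeR adjusted p = 0.0014).

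Other noncoding isoforms fell against the coding rows of their gene. NXF1, the main mRNA export receptor, with an intron-retaining transcript known for its regulation, was at 12.1%, 20.2% and 13.6% in BLANK and 3.93%, 5.44% and 6.20% in COM. Its noncoding sum fell by 0.70 and its coding sum rose by 1.01 (edgeR adjusted p of the difference 0.0014). HSF1, the heat shock factor, had 5.97%, 9.30% and 2.54% in BLANK and 0.884%, 1.17% and 0.849% in DOC (noncoding log2 -2.62, edgeR adjusted p of the difference 0.00062), with 5.84%, 6.15% and 8.77% in AgNPs. AOPEP, an aminopeptidase, fell from 25.6%, 24.5% and 29.7% to 2.07%, 4.56% and 1.72% in COM, and its AgNPs libraries were spread from 2.18% to 23.9%. ATAD2, a chromatin ATPase, had 1.65%, 2.85% and 3.17% in BLANK and 0 in every COM library. Its noncoding row was at least 45.2-fold lower in COM than in BLANK (floor of 3 counts over the group), with a difference from coding rows of edgeR adjusted p = 2.2e-05. RBM28, a nucleolar RNA-binding protein, was also at 0 in every COM library, at least 111-fold below BLANK, and at 0 in 2 of 3 AgNPs libraries. Zeros beside at least 30 counts also occurred among replicates of the same group, as counted above.

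The machinery that degrades such transcripts was described on the level of its genes. Of 25 tested nonsense-mediated decay genes, 1 rose and 7 fell in AgNPs, 0 and 4 in DOC, and 6 and 11 in COM. Of all genes, 36.3%, 15.6% and 54.0% were called. Of 20 tested nuclear exosome genes, 2 rose and 7 fell in AgNPs, 1 and 3 in DOC, and 4 and 10 in COM. Their part in the levels of the noncoding isoforms was not tested.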

How the data were processed

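PC3 RNA was extracted with TRIzol and made into libraries with a BGI mRNA kit, per the labels' protocols; the submitters' processing notes name HISAT2, Bowtie2 2.2.5, RSEM and GRCh38. The authors deposited 1 table with, for each of 221796 transcript rows and 12 libraries, expected counts (RSEM estimates, which need not be whole) and FPKM. How strand was handled is not given in the sources used here. The 44096 circular rows were left out.

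Expected counts, rounded, went into edgeR 4.0.16 under R 4.3.3 (filterByExpr, TMM scaling, a robust quasi-likelihood fit of 4 groups over 12 libraries, two-sided, Benjamini-Hochberg over all features), called at adjusted p under 0.05. Fits ran on 73953 rows, on 14787 genes with RefSeq rows summed, and on 18004 coding or noncoding sums of genes. Differences are log2 with standard errors (SE). Each row was also tested against the other rows of its gene (diffSpliceDGE), and noncoding against coding sums the same way. Printed CPM are TMM-scaled; deposited FPKM were used for levels across genes. Shares of counts were compared with exact permutation tests over every split of the libraries, written in Python 3.11.15 with numpy 2.4.6. The code was tested on simulated data.

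Named were up to 8 called features each way per treatment (4 for other contrasts, 6 for row usage) with sums of at least 500, groups that do not overlap and a symbol that is not a LOC number, up to 4 members of each list, and 16 genes named in advance of the tests; other genes named beside a count were chosen after their values were seen. The members and lists were chosen with earlier results of these data known. The labels do not say that replicates were separate cultures, so p-values measure the spread between these samples, which may be technical. Alternatives covered DESeq2 1.42.0 and limma 3.58.1, scaling, filters, thinning, row sets, a replicate block and leaving out each library.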

Additional observations from a re-analysis of the deposited data

Results flagged for a closer look

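In 7 results the joint treatment differed from the sum of AgNPs and DOC on the log2 scale by a test of the interaction (edgeR quasi-likelihood). Among summed noncoding genes these were NEAT1 (0.25, adjusted p = 0.0021), MIRLET7BHG (-0.47, adjusted p = 0.00031), MIR23AHG (-0.47, adjusted p = 0.015) and NSUN5P1 (1.14, adjusted p = 0.019). NSUN5P1 was at 5.12, 5.86 and 4.64 CPM in BLANK, 2.72, 3.82 and 2.58 in AgNPs, 3.89, 3.27 and 3.90 in DOC and 4.20, 5.06 and 4.97 in COM. Its interaction was not called in DESeq2, with all linear rows summed, or without BLANK replicate 2, AgNPs replicate 1 or 3, or COM replicate 2 or 3 (adjusted p up to 0.079). Among noncoding against coding sums they were ATAD2 (-10.02, adjusted p = 5.6e-05), COL27A1 (3.27, adjusted p = 0.0007) and TMEM63A (-2.08, adjusted p = 0.037). ATAD2's value is a fitted number that depends on the prior count, since its noncoding row was at 0 in COM. COL27A1 had 11.4%, 12.1% and 17.2% of its count on noncoding rows in BLANK, 5.65%, 7.85% and 3.53% in AgNPs, 7.03%, 7.82% and 6.86% in DOC and 25.4%, 16.3% and 25.5% in COM. TMEM63A had 14.5%, 13.1% and 14.5% in BLANK, 24.4%, 27.2% and 32.7% in AgNPs, 24.7%, 18.5% and 25.3% in DOC and 14.3%, 14.9% and 13.8% in COM. The TMEM63A call was lost with a replicate block and without BLANK replicate 1 or 2, AgNPs replicate 3, or DOC replicate 1 or 3 (adjusted p up to 0.097).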

How the results depend on the processing

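Of 151 called results for named noncoding genes, 83 kept direction and call under every alternative, as did 39 of 93 for single rows, 22 of 50 for noncoding against coding sums, 30 of 40 for noncoding sums and 1 of 8 for row usage. DESeq2 called 67, 248, 104, 669, 419 and 248 member rows for the interaction, AgNPs, DOC, COM, COM against DOC and COM against AgNPs (main 3, 54, 4, 284, 156 and 44), but fewer summed genes in AgNPs (154 against 243), DOC (63 against 137) and COM against AgNPs (112 against 175). Member rows fell to 29 (COM against AgNPs) and 1 (interaction) at sums of at least 500; to 1, 24, 97 and 1 without the filter (DOC, COM against AgNPs, COM against DOC, interaction); to 30, 0, 6 and 53 with only the groups compared (AgNPs, DOC, COM against AgNPs, COM against DOC); to 2 in DOC and 0 for the interaction both with RefSeq rows alone and after thinning; and to 27 and 0 with one dispersion (COM against AgNPs, interaction; chosen after seeing the data). The interaction gave 1 row with limma on FPKM and 6 with limma on CPM, the latter chosen after seeing the data. Usage rows in DOC numbered 7 with all linear rows of a gene, and limma's diffSplice called 14, 32 and 57 in AgNPs, DOC and COM (main 2, 4 and 15); summing noncoding and coding rows, chosen after seeing the data, called 8, 12 and 74. With all linear rows summed, 212 noncoding genes were called in DOC. The cause of these shifts was not tested.

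The replicate numbers showed no sign of pairing the samples: correlations of same-numbered deviations ranged from -0.219 to 0.217 over 18 pairs. Their mean was -0.021, against 0.011 for pairs with other numbers. With 3 libraries in each group this cannot exclude a shared batch, and the labels give none. With a replicate block, called member rows were 33, 0, 14, 91 and 0 (AgNPs, DOC, COM against AgNPs, COM against DOC, interaction), usage rows 1, 1 and 9, and noncoding against coding sums 5, 6, 16, 25 and 5 (main 8, 12, 43, 44 and 9; chosen after seeing the data).

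Leaving out each library gave 35 to 60 member rows in AgNPs, 0 to 6 in DOC, 163 to 276 in COM, 23 to 46 in COM against AgNPs, 98 to 132 in COM against DOC and 0 to 4 for the interaction; usage rows 0 to 4, 0 to 7 and 5 to 20; summed genes 179 to 270, 74 to 153, 425 to 534, 116 to 198, 258 to 324 and 8 to 15; and noncoding against coding sums 6 to 16, 5 to 20, 45 to 81, 18 to 42, 22 to 44 and 3 to 23.

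The share of noncoding genes exceeded BLANK by 0.209, 0.107 and 0.444 percentage points in AgNPs, DOC and COM, by 0.261, 0.161 and 0.583 as a share of RefSeq counts, and by 0.0176, 0.043 and 0.049 without NEAT1, the last chosen after seeing the data. That of isoforms was 0.0217, 0.048 and 0.0753, 0.0593, 0.124 and 0.194 as a share of RefSeq counts, and 0.004 in AgNPs and 0.0363 in COM at sums of at least 500. Without single libraries the noncoding gene values ran from 0.204 to 0.217, 0.0961 to 0.127 and 0.437 to 0.455, and those of isoforms from 0.0161 to 0.0286, 0.0176 to 0.0671 and 0.0697 to 0.0821.

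With all linear rows summed the sign turned for LINC01806 (AgNPs -0.14, DOC -0.10), LINC-PINT (AgNPs 0.23, COM 0.40), GAS5 (AgNPs -0.043), SNHG1 (AgNPs -0.12, COM -0.0606), TUG1 (DOC 0.0685, COM 0.18), SNHG21 (DOC 0.14), SNHG17 (COM -0.10), EPB41L4A-AS1 (COM -0.12), LINC01128 (COM against AgNPs 0.20) and SNHG8 (COM against DOC -0.0855). Leaving out 1 library turned the sign of uncalled values: LINC-PINT in AgNPs (range -0.0593 to 0.0701) and COM (range -0.23 to 0.0718), TUG1 in AgNPs (range -0.0646 to 0.10) and DOC (range -0.0731 to 0.0711), MALAT1 in DOC (range -0.10 to 0.21), SNHG1 in AgNPs (range -0.0216 to 0.11) and DOC (range -0.11 to 0.20), NMRAL2P in DOC (range -0.25 to 0.53) and MIR22HG in DOC (range -0.0215 to 1.71).

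AgNPs and COM libraries held the fewest counts, and rows near the limit of 100 counts over 12 libraries have few counts in each. The part of depth in the precision was not tested.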
